A study of Arabidopsis thaliana with 12 samples.

Results

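The array table of the study held 3439 features. The platform's probe annotation listed 1 gene for 692 of them, several genes for 870 and no gene for 1877. From the 870, the 200 features with the highest mean deposited intensity over all 12 arrays were taken, and each is given here by its whole gene list, since the annotation does not tell which of the listed genes gave the signal. The 200 features were thus chosen by their measured brightness, which is given as a description and carries no test. Total RNA of dark-adapted Arabidopsis thaliana of the landsberg ecotype was measured on 6 arrays of the laf6 mutant and 6 arrays of WT. Both groups shared the ecotype and the dark adaptation. The labels describe laf6 as a plant without the transporter atABC1, a gene now known as SUFB, and its own transcript was not analysed here. The labels name no tissue, no age and no separate plants, and the spread between arrays, on which all p-values rest, may therefore be technical.

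SUFB belongs to the plastid machinery that assembles iron-sulfur clusters, which the photosynthetic electron carriers, ferredoxin and several plastid enzymes need. The laf6 mutant is known from the study of seedling responses to far-red light. Arabidopsis has many duplicated genes, and copies of like sequence, such as the genes of histone H3.3 or of the CP29 antenna protein, can bind the same probe. A several-gene feature may therefore stand for a small gene family, with a level that cannot be divided among the copies.

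The 200 features listed 466 genes, 447 of them distinct, and all 466 were found in the RefSeq gene table. Lists of 2 genes were the most frequent with 148 features, 40 features listed 3 genes, 10 listed 4 and 2 listed 5. Listed genes were mostly not neighbours on a chromosome. In 164 features no listed genes were neighbours, in 20 all of them were, and in 16 some were. The mean deposited intensity, which has no absolute unit because every array ran from 0 to 100, was 89.2 for the brightest feature and 0.474 for the dimmest. Only 9 features had a mean above 10 and 81 had a mean above 1. Just inside the limit lay the feature of ATPC2 and ATPC1 at 0.479, that of AT1G49990, AT4G22430 and AT3G26010 at 0.478 and that of AT5G64090 and AT5G21050 at 0.474. Just outside it lay the feature of AT4G21300 and OTP86 at 0.473, that of AT4G17080 and AT2G35170 at 0.473 and that of BLT, AT1G50660 and AT3G20350 at 0.472.

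As deposited, the 200 features held 14.7% ± 0.718 of the summed intensity of a laf6 array and 17.2% ± 0.354 of that of a WT array (SD, n = 6 each). The laf6 arrays lay between 13.7% and 15.6% and the WT arrays between 16.5% and 17.5%, so the groups did not overlap. The 10 brightest features held 9.40% ± 0.511 in laf6 and 8.99% ± 0.397 in WT, and these ranges overlapped. The other 190 held 5.33% ± 0.229 in laf6 and 8.17% ± 0.297 in WT, with every laf6 array below every WT array. Beside this, the 20 brightest of all 3439 features held 39.3% to 41.6% of the intensity of laf6 arrays and 29.7% to 31.6% of that of WT arrays, and the part of this in the values below was not tested. The number of arrays limits the precision of every value.

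**Figure D1:**
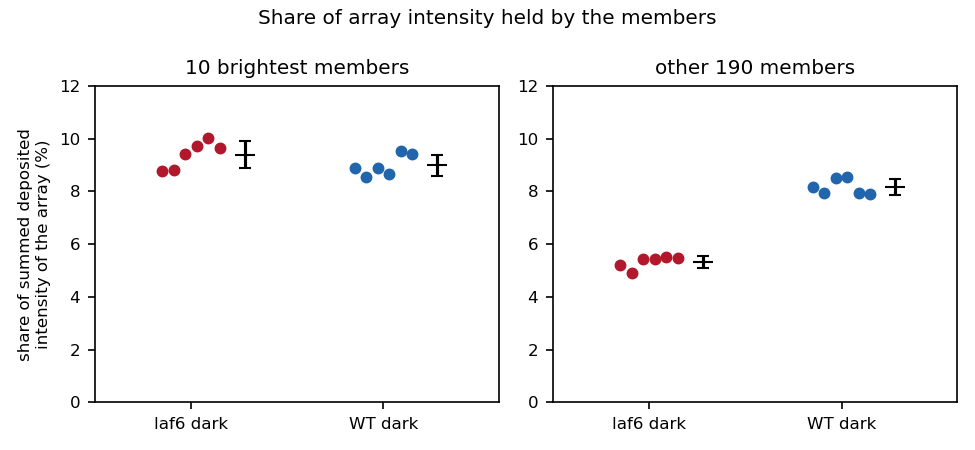
Share of the summed deposited intensity of each array, in percent, held by the 10 brightest several-gene features (left) and by the other 190 (right). Points are arrays, and the bar beside each group is the mean ± SD of 6 arrays: the groups overlap on the left, while on the right the laf6 arrays lie between 4.92% and 5.51% and the WT arrays between 7.91% and 8.55%.

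Arrays were compared after quantile normalization, which gives all arrays one distribution of intensities, and a log2 difference below is always laf6 minus WT. At an adjusted p under 0.05 (limma, Benjamini-Hochberg over all 3439 features), 40 of the 200 features were higher in laf6, 79 were lower and 81 did not pass. That is 59.5% called, beside 26.2% of all features (12.4% higher and 13.8% lower). Among the 705 other features at least as bright as the dimmest of the 200, 61.1% were called (28.1% higher and 33.0% lower), and among the 670 dimmer several-gene features 11.9%. The share of the 200 was thus near that of these 705, called the other bright features below. Only a lower limit of brightness was set for them, so they were not matched to the 200 in brightness. The 200 brightest of all features held only 36 of the several-gene features chosen here. The median log2 difference of the 200 chosen features was -0.31, against -0.02 over all features and -0.17 over the other bright features. It depends on the arrays used for the ranking, with -0.42 for the 200 several-gene features brightest in WT and -0.13 for the 200 brightest in laf6. In 87 of the 200 (43.5%) the normalized values of the groups did not overlap, 31 with laf6 above WT and 56 with laf6 below WT, beside 17.9% of all features (8.52% and 9.36%). Values as deposited, which moved the median of all features to -0.45, gave 27 features higher and 122 lower in laf6 (beside 7.33% and 26.3% of all features) and a median of -0.73. Averaging arrays of adjacent replicate number within a group, in case these are repeats, left 3 samples per group and 26 features higher and 40 lower. The share of all features called was not counted in that fit, so nothing about the 200 is read from the smaller counts. Array medians of adjacent numbers were close in WT (0.245 and 0.247, 0.280 and 0.289, 0.223 and 0.218). In laf6 they were 0.179 and 0.178, 0.189 and 0.202, and 0.186 and 0.199. As a random block, adjacent numbers had a correlation of 0.194, and 39 of the 40 higher and 74 of the 79 lower calls were kept. Without replicates 1 and 2 of both groups, 32 of the 40 higher and 55 of the 79 lower calls were kept.

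Calls were most frequent among the brightest features. Of ranks 1 to 50, 12 were higher and 31 lower in laf6, or 86% called. Of ranks 151 to 200, 10 were higher and 14 lower, or 48%, beside 26.2% of all features. Features whose listed genes were all neighbours had 5 higher and 7 lower of 20. Those with no neighbouring genes had 29 higher and 66 lower of 164. These shares of 60% and 57.9% were both near the 59.5% of the 200.

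**Figure D2:**
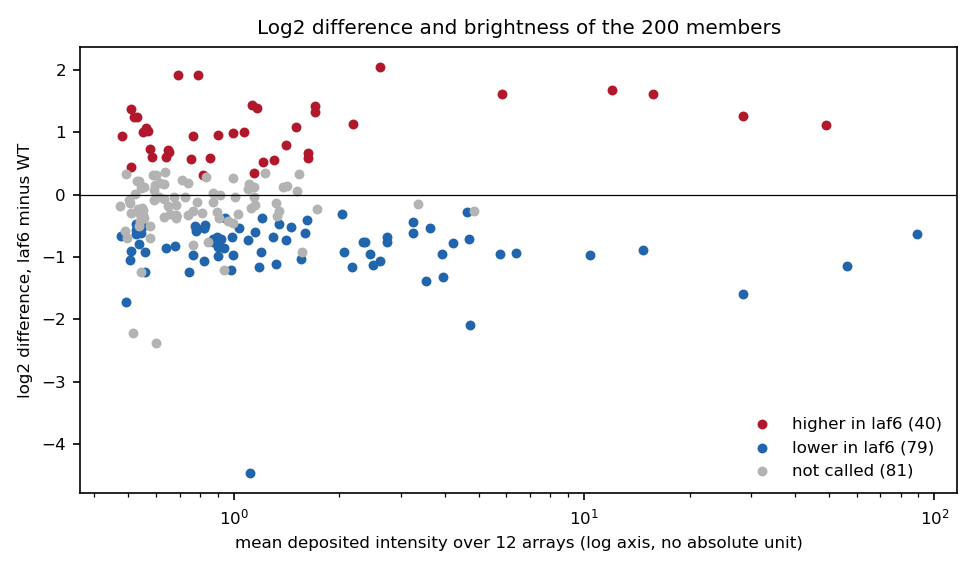
Log2 difference of quantile-normalized intensity (laf6 minus WT) against mean deposited intensity over 12 arrays (log axis, no absolute unit) for the 200 features. Each point is a feature, red where called higher in laf6 (40), blue where called lower (79) and grey where not called (81), and called features are found over the whole range of brightness.

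Features that listed at least 1 gene of photosynthesis or thylakoid proteins formed the group in which higher values prevailed. Of its 10 features, 7 rose in laf6, 2 fell and 1 did not pass, with a median log2 difference of 1.01, against -0.31 over the 200 features and -0.02 over all features. As deposited, 6 rose and 2 fell. The group was drawn up by hand from gene function after the brightness of the features was known, and its count is a description, as are those of the other groups by function. For every group 1 listed gene was enough, whether or not the other genes of the list belonged there. The signal of a feature may thus come from a gene outside its group. The 9 groups held 5 to 14 features each, of which 44.4% to 100% were called, beside 26.2% of all features, and with so few features nothing is read from a group's share.

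The feature of LHCB4.1, LHCB4.2 and LHCB4.3, the genes of the minor photosystem II antenna protein CP29, had normalized intensities of 0.991, 1.18 and 1.39 (lowest, median and highest) in laf6 and 0.190, 0.320 and 0.466 in WT. Every laf6 array lay above every WT array. The log2 difference was 1.92 ± 0.18 (SE, n = 6 each), with an adjusted p of 1.39e-05. Among the 200 features it was the only match to the antenna gene list.

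The feature of AT5G35660 and AT2G26500, of which AT2G26500 encodes the PetM subunit of the cytochrome b6f complex, was among the 10 brightest. Its normalized intensities were 19.1, 21.9 and 23.5 (lowest, median and highest) in laf6 and 5.08, 6.59 and 11.7 in WT, again without overlap. It was higher by 1.62 ± 0.20 on the log2 scale (adjusted p = 8.42e-05).

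TROL, a thylakoid rhodanese-like protein that tethers ferredoxin-NADP reductase, shared a feature with AT3G25480 and had 1.30, 1.70 and 2.25 in laf6 and 0.474, 0.648 and 0.845 in WT (log2 difference 1.44 ± 0.19, adjusted p = 0.000147). The feature of AT4G38100 and AT4G01150, the curvature proteins CURT1D and CURT1A of the grana margins, had 1.95, 2.14 and 3.57 in laf6 and 0.856, 0.945 and 1.18 in WT (1.33 ± 0.17, adjusted p = 0.00015). In both, the lowest laf6 array was above the highest WT array. LIL3:2 and LIL3:1, light-harvesting-like proteins that hold geranylgeranyl reductase at the membrane, were higher by 1.07 ± 0.21 (adjusted p = 0.00258), with normalized intensities of 0.533 to 1.10 in laf6 and 0.295 to 0.489 in WT. Their groups overlapped as deposited, and the call was lost with adjacent numbers averaged (adjusted p = 0.0645). A dimmer feature with the identical LIL3 list differed by 0.43 ± 0.21 and did not pass (adjusted p = 0.174).

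ATPC2 and ATPC1 encode forms of the gamma subunit of the chloroplast ATP synthase. Their feature had 0.463, 0.650 and 0.879 in laf6 and 0.288, 0.331 and 0.409 in WT and was higher by 0.95 ± 0.16 (adjusted p = 0.000768). MENG, the methyltransferase of phylloquinone synthesis, shared a feature with AT5G57300 that was higher by 0.69 ± 0.21 (adjusted p = 0.0318), but its groups overlapped and it did not pass as deposited (0.25, adjusted p = 0.385), nor without any 1 of 6 arrays, laf6 replicates 2 and 3 and WT replicates 1 to 4 (adjusted p 0.0593 to 0.0680). The fibrillin feature of AT5G09820, AT4G22240, FIB and AT2G35490, plastid lipid-body proteins, gave a log2 difference of 0.01 ± 0.22 (adjusted p = 0.995) with overlapping groups.

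The features that fell in this group were those of AT1G73110 and RCA and of AT5G08720 and AT4G01650. RCA is rubisco activase, which frees rubisco of bound sugar phosphates. Its feature had 0.864, 1.03 and 1.22 in laf6 and 1.42, 1.69 and 1.95 in WT, without overlap, and was lower, at a log2 difference of -0.72 ± 0.12 (adjusted p = 0.000748). AT5G08720 is the gene of HCF145, which stabilises the plastid psaA transcript. Its feature was brighter, with 3.57, 3.90 and 4.22 in laf6 and 6.23, 7.97 and 8.46 in WT (-0.96 ± 0.09, adjusted p = 9.46e-06).

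**Figure D3:**
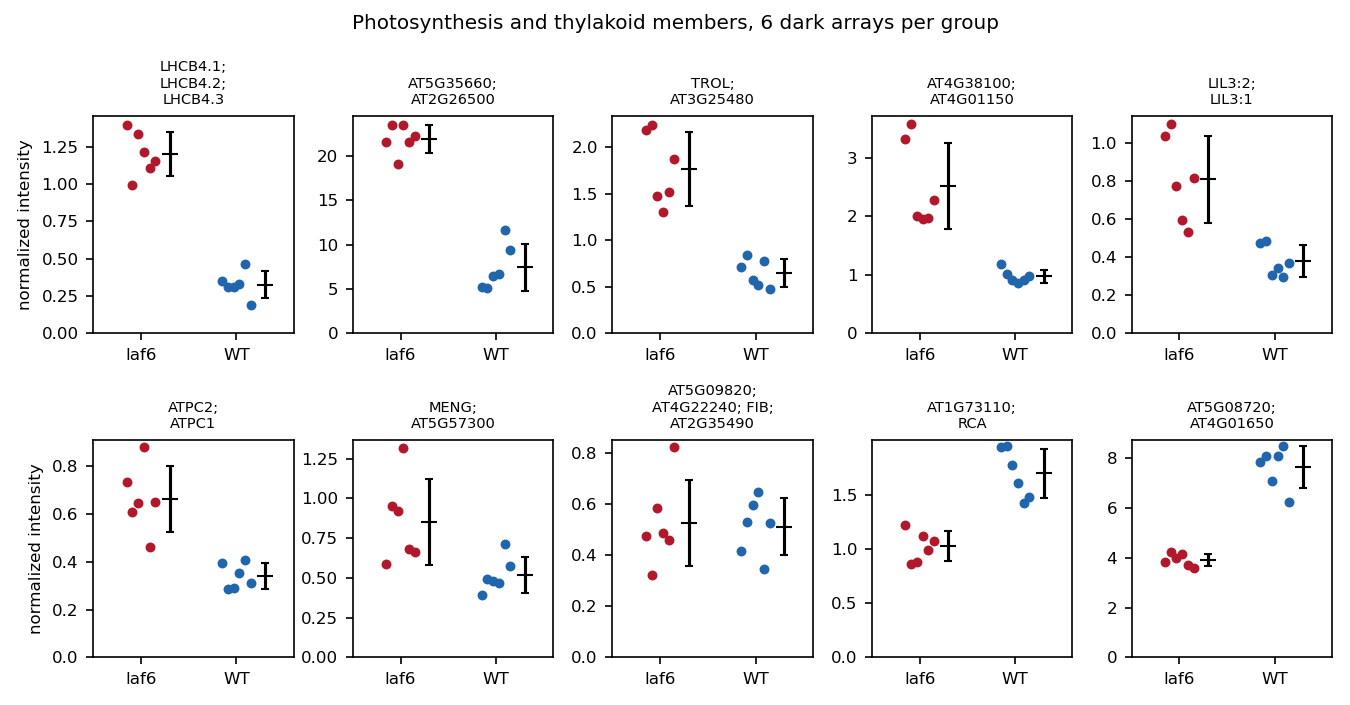
Quantile-normalized intensity (no absolute unit, axes from 0) of the 10 photosynthesis and thylakoid features, headed by their gene lists, in laf6 and WT dark arrays. Points are the 6 arrays of a group and bars the mean ± SD: the LHCB4 feature lies between 0.991 and 1.39 in laf6 and between 0.190 and 0.466 in WT, while the RCA feature lies between 0.864 and 1.22 in laf6 and between 1.42 and 1.95 in WT.

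Other features that rose by more than 1 on the log2 scale came from unlike gene families. The feature of AT5G10980, AT4G40040 and AT4G40030, the genes of the histone variant H3.3 that replaces H3.1 outside replication, had the largest rise of the 200. Its normalized intensities were 3.36, 4.63 and 4.71 in laf6 and 0.957, 1.04 and 1.16 in WT, so that the groups stood far apart (2.05 ± 0.10, adjusted p = 1.17e-07). A dimmer feature of AT5G10980 and AT4G40030, with a mean deposited intensity of 0.271, gave a log2 difference of -0.00 ± 0.25 (adjusted p = 1). The feature of the cyclophilin-type prolyl isomerases AT3G66654 and AT2G47320 had 14.8, 17.5 and 19.5 in laf6 and 4.60, 5.28 and 6.75 in WT (1.68 ± 0.11, adjusted p = 8.72e-07).

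The bright feature of AT4G00165 and AT2G45180, of the lipid-transfer and protease-inhibitor superfamily, had 31.1, 32.2 and 42.9 in laf6 and 13.1, 14.5 and 15.5 in WT (1.27 ± 0.10, adjusted p = 2.29e-06). AT1G08845, AT5G27820 and AT3G20230, of the ribosomal L18p/L5e family, were listed for the third brightest feature. Its normalized intensities were 56.0, 61.3 and 71.8 in laf6 and 25.5, 29.3 and 31.1 in WT (1.12 ± 0.08, adjusted p = 2.03e-06). Both differences were larger as deposited, 1.62 for the AT4G00165 feature and 1.69 for the ribosomal one. Dimmer features that rose without overlap were those of AT1G27695, AT1G27690 and AT5G06610 (1.92 ± 0.16), of AT5G54360 and AT5G54350 (1.61 ± 0.10), of the WD40-repeat genes AT1G24530, AT1G24130 and AT5G50120 (1.42 ± 0.13), of AT3G11591, AT5G22310 and AT3G11590 (1.40 ± 0.13) and of the YbaB-type DNA-binding genes AT4G30620 and AT2G24020 (1.38 ± 0.16). Their adjusted p-values ran between 6.85e-07 and 6.86e-05.

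**Figure D4:**
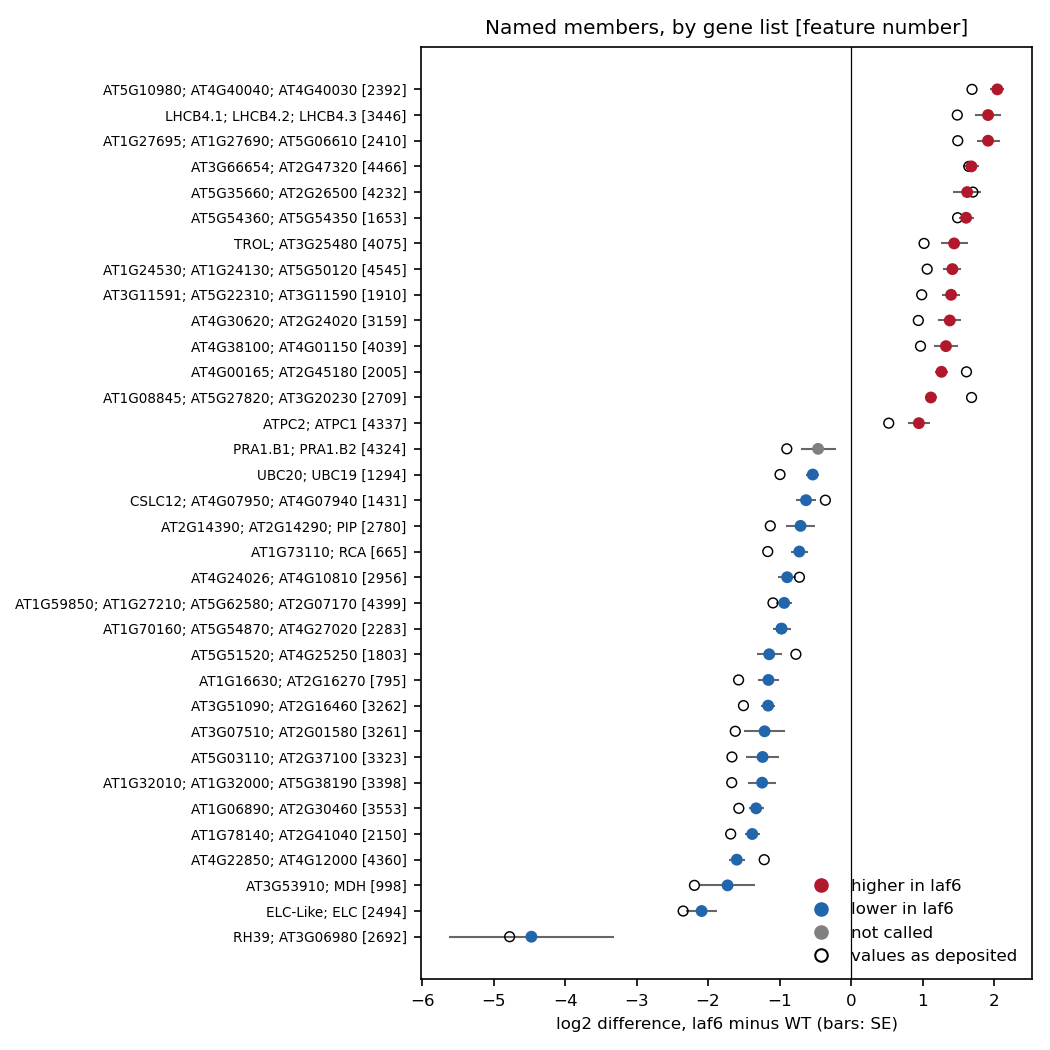
Log2 differences, laf6 minus WT, of the features named by the rule for brightness, size of change and gene lists, each with its gene list and feature number. Filled points with SE bars are quantile-normalized values and open circles values as deposited: the H3.3 feature is highest at 2.05 and the RH39 feature lowest at -4.47, a value that rests on 2 laf6 arrays listed at 0, and the CSLC12 feature, at -0.63, turned to 0.043 under median scaling.

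Of the 9 features of pentatricopeptide repeat (PPR), mTERF and other RNA proteins, 1 rose, 4 fell and 4 did not pass. That is 55.6% called, beside 26.2% of all features and 61.1% of the other bright features. PPR proteins bind organelle transcripts and guide their editing, splicing or stability. The feature of AT5G03560 and AT4G38150 rose, with 2.36 to 3.43 in laf6 and 1.17 to 1.58 in WT (1.13 ± 0.13, adjusted p = 4.73e-05). That of AT5G27300, AT2G27800 and AT2G27790 fell, with 1.12 to 1.95 in laf6 and 2.62 to 3.67 in WT (-0.95 ± 0.15, adjusted p = 0.000751), and that of AT1G62350 and AT3G46870 fell, with 0.534 to 0.762 in laf6 and 1.05 to 1.16 in WT (-0.85 ± 0.09, adjusted p = 2.69e-05). The feature of AT1G02060 and AT2G37230 was lower, at -0.43 ± 0.14 (adjusted p = 0.0383) with overlapping groups, and its call was lost in 15 of 26 alternative fits, among them cyclic loess (adjusted p = 0.107) and each fit without laf6 replicates 1 to 4 or WT replicates 1, 3, 4, 5 or 6 (adjusted p 0.0515 to 0.0808).

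RH39, a DEAD-box helicase of chloroplast 23S ribosomal RNA, shared a feature with AT3G06980. As deposited it was listed at 0 on 2 laf6 arrays, with a median of 0.236 and a highest value of 0.332 in laf6, against 1.83, 2.01 and 2.29 (lowest, median and highest) in WT. The groups did not overlap, but the size of the log2 difference of -4.47 ± 1.15 (adjusted p = 0.0134) depends on the floor that replaced the zeros. Over all 26 alternative fits, those with arrays left out among them, it ran from -4.92 to -2.67. Its call was lost with adjacent numbers averaged (adjusted p = 0.157).

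Among 5 translation features, 3 fell and only the ribosomal L18p/L5e feature rose. That is 80% called, beside 26.2% of all features and 61.1% of the other bright features. AT4G26310 and AT3G08740, of the elongation factor P family, had 3.25, 3.44 and 3.85 in laf6 and 5.05, 5.63 and 6.58 in WT (-0.71 ± 0.08, adjusted p = 5.29e-05). The peptidyl-tRNA hydrolases AT5G38290 and AT5G16140, which recycle stalled tRNAs, were lower, at -0.82 ± 0.16 (adjusted p = 0.00266). The mitochondrial ribosomal genes AT4G21460 and AT3G18240 were lower, at -0.79 ± 0.13 (adjusted p = 0.00096). In all 3 the highest laf6 array was below the lowest WT array, and the hydrolase call was lost with adjacent numbers averaged (adjusted p = 0.0743).

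Of 6 features of plastid and mitochondrial metabolism, 3 fell and 1 rose. The 66.7% called stood beside 26.2% of all features and 61.1% of the other bright features. MDH, the plastid NAD-dependent malate dehydrogenase that works in darkness, shared a feature with AT3G53910. It had 0.0594, 0.243 and 0.351 in laf6 and 0.494, 0.682 and 0.839 in WT, without overlap (-1.73 ± 0.38, adjusted p = 0.00584). HISN5B and IGPD, the imidazoleglycerol-phosphate dehydratases of histidine synthesis, had 0.255, 0.548 and 0.763 in laf6 and 0.929, 1.05 and 1.15 in WT (-1.06 ± 0.23, adjusted p = 0.00445). The feature of AT1G18270 and AT4G20930, which include a 3-hydroxyisobutyrate dehydrogenase of valine breakdown, fell, with 1.53 to 1.76 in laf6 and 3.10 to 3.98 in WT (-1.07 ± 0.08, adjusted p = 1.22e-06). Acyl-carrier-protein desaturases introduce the first double bond of plastid fatty acids. The feature of their genes AT5G16230, AT3G02620 and AT3G02610 rose, with 0.968 to 1.15 in laf6 and 0.451 to 0.668 in WT (0.95 ± 0.10, adjusted p = 3e-05). Its groups overlapped as deposited, where the difference was 0.50 (adjusted p = 0.00829). Dimmer features of these genes did not pass, that of AT3G02620 and AT3G02610 at -0.05 ± 0.18 (adjusted p = 0.891) and that of AT5G16230 alone at -1.32 ± 0.49 (adjusted p = 0.0715).

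Of 14 cell wall and glycan features, 8 fell in laf6, 1 rose and 5 did not pass, with a median log2 difference of -0.55. The 64.3% called was near the 61.1% of the other bright features, beside 26.2% of all features. The brightest of all 200 features listed CSLC12, of the cellulose synthase-like family that makes the glucan backbone of xyloglucan, together with AT4G07950 and AT4G07940. As deposited it was within 0.001 of 100, the top of the scale, on all 6 WT arrays and on no laf6 array, where it had 65.8, 80.3 and 88.3 (lowest, median and highest). Between 1 and 4 features of every array stood at this top, and no label says whether it is a ceiling. After quantile normalization the feature was lower, at -0.63 ± 0.14 (adjusted p = 0.00619), whereas median scaling turned it to 0.043 (adjusted p = 0.804) and 75th percentile scaling to 0.067 (adjusted p = 0.705).

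The feature of AT5G51520 and AT4G25250, of the invertase and pectin methylesterase inhibitor family, was the next brightest, with normalized intensities of 25.5, 38.1 and 49.9 in laf6 and 66.9, 81.9 and 86.0 in WT. Its log2 difference was -1.14 ± 0.17 (adjusted p = 0.000438), and it did not pass under median scaling (-0.37, adjusted p = 0.0767) or 75th percentile scaling (-0.35, adjusted p = 0.124). AT1G06890 and AT2G30460, Golgi transporters that supply UDP-xylose for xylan and xyloglucan, had 1.82, 2.34 and 2.44 in laf6 and 4.75, 5.42 and 6.58 in WT, with every laf6 array below every WT array and the call kept in all 26 alternative fits (-1.33 ± 0.10, adjusted p = 2.7e-06). The polygalacturonase genes AT2G43865, AT3G59850, AT2G43870 and AT2G43860, whose products cut pectin, were lower, at -0.78 ± 0.12 (adjusted p = 0.000637), and so were the O-fucosyltransferase genes AT5G63390, AT3G07900 and AT2G44500, at -0.96 ± 0.16 (adjusted p = 0.000922). A single-gene feature of AT5G63390 outside the 200 was called the opposite way, at 0.75 ± 0.24 (adjusted p = 0.0374).

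Falls with overlapping normalized groups were found for TBL24 and TBL23, of the polysaccharide acetyltransferase family (-0.86 ± 0.20, adjusted p = 0.00742), and for CSLC5, CSLC6 and ATCSLC08 (-0.37 ± 0.09, adjusted p = 0.011). The other O-fucosyltransferase feature, of AT1G35510, AT1G14970 and AT2G01480, was higher by 0.32 ± 0.09 after normalization (adjusted p = 0.0214) and at -0.13 as deposited (adjusted p = 0.292). With adjacent numbers averaged, the CSLC12, TBL24, CSLC5, polygalacturonase and AT1G35510 features did not pass (adjusted p 0.0536 to 0.147).

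All 5 features of lipid-transfer type, peroxidase and GDSL lipase genes were called, 2 higher and 3 lower. Beside this, 26.2% of all features and 61.1% of the other bright features were called, and nothing is read from so few features. Beside the AT4G00165 feature, that of the lipid-transfer type genes AT4G12520 and AT4G12510 rose, with 1.25 to 1.64 in laf6 and 0.597 to 0.817 in WT (0.98 ± 0.10, adjusted p = 2.69e-05). Class III peroxidases, secreted enzymes that cross-link or loosen the wall, were represented by AT4G30170 with AT2G18980 (-0.68 ± 0.09, adjusted p = 0.000141) and AT1G34510 with AT4G26010 (-0.91 ± 0.12, adjusted p = 0.000124). The GDSL lipase feature of AT1G73610 and AT1G23500 was lower, at -0.73 ± 0.17 (adjusted p = 0.00647), with a lost call when adjacent numbers were averaged (adjusted p = 0.111).

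ELC-Like and ELC, which were in none of the groups, are homologues of the ESCRT-I subunit that sorts ubiquitinated membrane proteins. Their feature had 1.42, 1.71 and 1.95 in laf6 and 5.56, 5.80 and 12.1 in WT, without overlap (-2.09 ± 0.22, adjusted p = 3e-05). AT4G22850 and AT4G12000, of the SNARE-associated Golgi protein family, had 13.6, 16.9 and 19.5 in laf6 and 42.9, 48.5 and 56.0 in WT, and no alternative ended the call (-1.60 ± 0.11, adjusted p = 1.16e-06). The feature of PRA1.B1 and PRA1.B2, receptors of prenylated Rab proteins, gave -0.46 ± 0.24 and did not pass (adjusted p = 0.21), though it did as deposited (-0.90, adjusted p = 0.0186). A dimmer feature that also listed PRA1.B3, with a mean deposited intensity of 0.450, was called lower, at -0.64 ± 0.18 (adjusted p = 0.0211).

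Of 9 chromatin and transcription features, 2 were higher, 3 lower and 4 not called, a share of 55.6% beside 26.2% of all features. After the H3.3 feature, ALC and SPT, basic helix-loop-helix regulators of carpel and fruit tissue, were higher by 0.67 ± 0.10 (adjusted p = 0.000326), with 1.95 to 2.19 in laf6 and 1.05 to 1.50 in WT. The feature of the auxin response repressors IAA30, IAA31 and IAA20 was lower, at -0.77 ± 0.17 (adjusted p = 0.00649), with 1.32 to 2.03 in laf6 and 2.13 to 3.98 in WT. Dimmer features did not pass, that of IAA31 alone at -0.14 ± 0.08 (adjusted p = 0.269) and that of IAA30 and IAA20 at 0.43 ± 0.42 (adjusted p = 0.502). The PHD-finger genes AT1G43770, AT5G16680 and AT3G02890 were lower, at -0.75 ± 0.16 (adjusted p = 0.00513) with slightly overlapping groups. The calls of the IAA and PHD-finger features were lost with adjacent numbers averaged (adjusted p = 0.115 and 0.104).

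Of the 9 features put into the group of F-box, RING and ubiquitin genes, 4 fell, 0 rose and 5 did not pass. The 44.4% called compares with 26.2% of all features and 61.1% of the other bright features. The group was not complete, since the F-box genes AT4G22030 and AT4G04480, with a feature that rose, were not put into it and are described with the identical lists. UBC20 and UBC19, ubiquitin-conjugating enzymes linked to the cell cycle, had 0.547, 0.650 and 0.734 in laf6 and 0.845, 0.919 and 1.06 in WT (-0.54 ± 0.09, adjusted p = 0.000881). The F-box features of AT1G16250 with AT3G63220 (-0.97 ± 0.24, adjusted p = 0.0118) and of AT1G49990, AT4G22430 and AT3G26010 (-0.67 ± 0.17, adjusted p = 0.0118) and the RING feature of AT1G63170, AT1G12760 and AT4G11680 (-0.56 ± 0.15, adjusted p = 0.0163) were lower too. Except for that of AT1G49990, these calls did not hold with adjacent numbers averaged (adjusted p 0.0535 to 0.118), and the call of AT1G49990 was lost without replicates 1 and 2 of both groups (adjusted p = 0.0587).

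Of 12 kinase and defence signalling features, among them the PHOS32 features described further on, 2 rose, 4 fell and 6 did not pass. That is 50% called, beside 26.2% of all features and 61.1% of the other bright features. AKINBETA1 and AT4G16360, beta subunits of the SnRK1 kinase that responds to low energy, were lower, at -0.58 ± 0.14 (adjusted p = 0.00917). The TIR-type resistance genes AT1G63740 and AT1G63730 were lower, at -0.53 ± 0.13 (adjusted p = 0.0126), a call lost under median scaling (-0.38, adjusted p = 0.143). AT1G57630 and AT3G44670, which also encode TIR domains, were higher by 0.72 ± 0.17 (adjusted p = 0.00825) and not called as deposited (0.28, adjusted p = 0.283). None of these 3 passed with adjacent numbers averaged (adjusted p 0.0748 to 0.16).

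Most of the 200 features, 121, were in none of these groups, with 23 higher, 45 lower and 53 not called. Their share of 56.2% called was near the 61.1% of the other bright features, beside 26.2% of all features. The largest falls among these 121, beside the ELC and SNARE-associated features, were those of the methyltransferase genes AT1G78140 and AT2G41040 (-1.38 ± 0.11), of AT1G32010, AT1G32000 and AT5G38190 (-1.24 ± 0.20), of AT5G03110 and AT2G37100 (-1.24 ± 0.24), of AT3G07510 and AT2G01580 (-1.21 ± 0.29), of AT3G51090 and AT2G16460 (-1.16 ± 0.10) and of AT1G16630 and AT2G16270 (-1.15 ± 0.15). In each of these 6, every laf6 array was below every WT array. The methyltransferase feature, for example, had 1.65, 1.88 and 2.39 in laf6 and 4.48, 4.85 and 5.71 in WT (adjusted p = 2.29e-06). The AT3G07510 and AT5G03110 features did not pass with adjacent numbers averaged (adjusted p = 0.117 and 0.0545). A dimmer feature of AT1G32010 and AT5G38190, with a mean deposited intensity of 0.361, gave 0.09 ± 0.14 and did not pass (adjusted p = 0.701). A dimmer feature with the identical list of AT1G16630 and AT2G16270, with a mean of 0.150, gave 0.70 ± 0.55 (adjusted p = 0.409). The second AT5G03110 feature is described with the identical lists.

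The remaining features of the 10 brightest were lower in laf6. That of AT4G24026 and AT4G10810 had 8.46, 11.0 and 11.7 in laf6 and 16.2, 19.1 and 25.5 in WT (-0.89 ± 0.12, adjusted p = 0.000234) and was not called under median scaling (-0.32, adjusted p = 0.176). That of AT1G70160, AT5G54870 and AT4G27020 had 5.90, 7.39 and 9.05 in laf6 and 12.1, 14.1 and 16.5 in WT (-0.97 ± 0.13, adjusted p = 0.000141). That of the ARM-repeat genes AT1G59850, AT1G27210, AT5G62580 and AT2G07170 had 3.82, 4.65 and 5.08 in laf6 and 7.42, 8.38 and 11.1 in WT (-0.93 ± 0.11, adjusted p = 9.36e-05). The groups did not overlap in any of them.

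No feature of the 200 was listed at 0 on a WT array, and 5 were listed at 0 on some laf6 array. All of these zeros were on laf6 replicates 1 and 2, with 4 and 3 of them, and none on laf6 replicates 3 to 6. Over all 3439 features, replicates 1 and 2 had 674 and 635 zeros and the other laf6 arrays 491 to 649. The 5 features were, beside the RH39 feature, those of AT2G44400, AT2G42060 and AT2G27660, of AT1G68730 and AT5G27280, of AT4G31890 and AT2G25130, and of GH9B15 and GH9B14, the last being endoglucanases of glycosyl hydrolase family 9. Beside RH39, the log2 differences lay between -2.38 and -1.20 with standard errors of 0.92 to 1.37, and none of these 4 passed (adjusted p 0.107 to 0.54). A dimmer feature with the identical list of GH9B15 and GH9B14 was called lower, at -4.75 ± 1.44 (adjusted p = 0.0303).

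The same gene was often listed for more than 1 feature, which allowed features to be set side by side. Of the 200 features, 82 shared a gene with another feature, in 81 pairs. In 37 pairs both features had the identical list. Both features were called in 0 of these 37 pairs, 1 was called in 19 and neither in 18, and the log2 differences had the same sign in 23. The called features of RCA, HISN5B, UBC20 and AT4G30620 above thus each had a second feature of identical list that was not called. These second features were dim, with mean deposited intensities of 0.0103 to 0.0971. In 32 of the 37 the dimmer feature was outside the 200. The mean intensity of the brighter feature was at the median 5.37 times that of the dimmer, and over 10 times in 13 pairs. Of the 670 several-gene features outside the 200, only 11.9% were called. The part of weak signal in the counts of these pairs was not tested. Over all 81 pairs both features were called in 3, in the same direction in 1 of them. Such pairs share genes and all 12 arrays and are no independent replicates.

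Both features of a pair were among the 200 in 9 pairs. In 1 of the 9 both were called in the same direction, in 1 in opposite directions, in 6 only 1 was called and in 1 neither. The features of AT5G66000, AT4G35510 and AT2G17540 (-0.96 ± 0.18, adjusted p = 0.00168) and of AT4G35510 and AT2G17540 (-0.85 ± 0.19, adjusted p = 0.00572) fell together, the first of them not past the threshold with adjacent numbers averaged (adjusted p = 0.0559). PHOS32 and PHOS34, phosphoproteins of the universal stress protein family, were lower as a list of their own (-0.31 ± 0.08, adjusted p = 0.0104) and higher in a dimmer feature with AT1G11360 (0.74 ± 0.22, adjusted p = 0.0274). The first of these calls was lost under median scaling (-0.24, adjusted p = 0.161), and the second as deposited (0.31, adjusted p = 0.334) and without any 1 of 8 arrays, laf6 replicates 1 to 3 and WT replicates 2 to 6 (adjusted p 0.0512 to 0.0575). Both were lost with adjacent numbers averaged (adjusted p = 0.159 and 0.186).

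Identical lists also gave unlike values. The F-box genes AT4G22030 and AT4G04480 had a bright feature with 3.54, 4.07 and 5.62 in laf6 and 4.32, 5.04 and 6.23 in WT, which overlapped and did not pass (-0.26 ± 0.14, adjusted p = 0.231). Their dimmer feature had 1.07, 1.25 and 1.45 in laf6 and 0.607, 0.648 and 0.676 in WT, without overlap (0.96 ± 0.08, adjusted p = 4.83e-06). The features of AT4G03940 and AT4G03830 gave 0.13 ± 0.12 (adjusted p = 0.502) and -0.48 ± 0.14 (adjusted p = 0.0226). Those of AT1G04930 and AT2G32840 gave -0.69 ± 0.18 (adjusted p = 0.0156) and -0.37 ± 0.26 (adjusted p = 0.352), and those of AT5G03110 and AT2G37100 -1.24 ± 0.24 (adjusted p = 0.00221) and -0.69 ± 0.24 (adjusted p = 0.0587). The features of the AP2-type transcription factors AT3G60490 and AT2G44940 both missed the threshold. With adjacent numbers averaged the called features of the AT4G03940 and AT1G04930 pairs did not pass (adjusted p = 0.125 and 0.129). The difference between the features of a pair was not tested.

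Lists that shared only some genes also had unlike values, and these differences were not tested either. A second feature of ELC-Like and ELC, with AT2G38830 added, gave -0.30 ± 0.13 (adjusted p = 0.135) beside the -2.09 above. A second feature of CSLC12, AT4G07950 and AT4G07940, with AT4G07990 added, had a mean deposited intensity of 0.673 and a log2 difference of -0.04 ± 0.16 (adjusted p = 0.914). AT4G31530, of the NAD(P)-binding Rossmann-fold family, had a single-gene feature outside the 200 with a mean of 32.1 that was lower, at -1.98 ± 0.07 (adjusted p = 5.78e-09). In its several-gene feature with AT5G02240 and AT2G37660 the mean was 0.635 and the difference 0.36 ± 0.16 (adjusted p = 0.129).

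**Figure D5:**
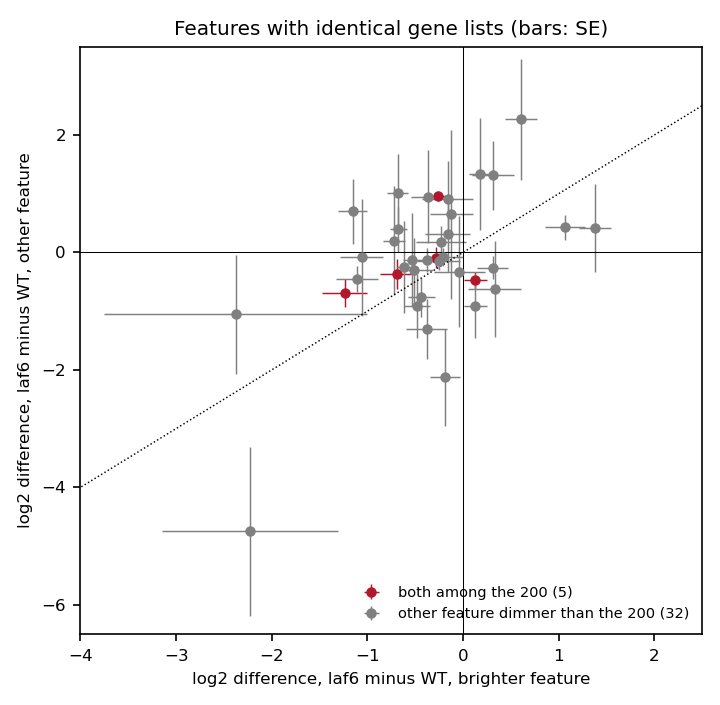
Log2 difference, laf6 minus WT, of the dimmer feature against that of the brighter feature for the 37 pairs with identical gene lists, with SE bars and a dotted line where both would be equal. Red points are the 5 pairs with both features among the 200 and grey points the other 32, and 23 of the 37 pairs have the same sign.

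Of 20 gene lists matched by symbol or synonym, 7 of the 200 features fell in 1 or more. The antenna list and the photosystem II list each held only the LHCB4 feature, the electron transport and ATP synthase list held the feature of ATPC2 and ATPC1, which rose, and the carbon fixation list held the RCA feature, which fell. The list of chaperones, import and proteases held only the feature of PIP, a proline iminopeptidase, with AT2G14390 and AT2G14290, which fell (-0.71 ± 0.20, adjusted p = 0.0228) but did not pass without WT replicate 4 (adjusted p = 0.0522) or with adjacent numbers averaged (adjusted p = 0.175). The isoprenoid list matched the PRA1 feature through the word prenylated only. The list of cytoskeleton, histone and ubiquitin genes held the H3.3 feature, which rose, and the UBC20 and UBC19 feature, which fell. The other 13 lists, among them photosystem I, tetrapyrrole, light signalling and the markers of root, seed and pollen, held 0 of the 200 features. Of these 13, 9 lists, the 4 just named included, matched none of the 870 several-gene features by symbol or synonym, so their 0 says nothing about brightness. The rest of the 13 matched only 1 to 8 of the 870. They missed features described above, such as those of PPR proteins and peroxidases, so their 0 is no measure of brightness either.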

How the data were processed

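Total RNA of dark-adapted laf6 and WT plants was measured on 6 single-colour arrays each. The authors deposited 1 linear intensity per feature and array. No label names the scanner, the background correction or the scaling. Each array ran from 0 to within 0.001 of 100, so the intensities have no absolute unit, and all 12 columns were matched to their samples. Genes came from the platform annotation, updated through a RefSeq gene table (assembly TAIR10.1), used only for names, synonyms and neighbour order (at most 5 genes between the first and the last listed gene). It holds no descriptions or proteins, so the gene lists matched by symbol and synonym only and classes by protein identity were not made. No build is stated for the array, and no coordinates are given.

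Array medians differed by 1.62 times, so quantile normalization was applied, a floor of 0.00597 was set from the 1st percentile of the positive intensities, and log2 was taken. limma 3.58.1 (lmFit and eBayes) in R 4.3.3 compared the groups without covariates, two-sided, with Benjamini-Hochberg adjustment over 3439 features and a threshold of 0.05. The procedure was tested on simulated data. Error values are SE of the log2 difference or SD over arrays.

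Features were named by rule: the 10 brightest of the 200, the 12 with the largest rise and the 12 with the largest fall past the threshold, up to 2 per direction from each of 20 gene lists, and 3 features on either side of rank 200, by level only. Another 48 features named in the text were picked after their values were seen. The members and lists were chosen with earlier results of these data known, and the 9 groups by function were written by hand after brightness was seen. The 20 lists were antenna, photosystem I, photosystem II, electron transport and ATP synthase, carbon fixation, photorespiration, tetrapyrrole, ribosome and translation, chaperones with import and proteases, redox and antioxidant, iron-sulfur assembly, amino acid and nitrogen metabolism, lipid metabolism, starch and sugar, isoprenoid, light signalling, dark-induced and senescence, organelle RNA proteins, cytoskeleton with histone and ubiquitin, and root, seed and pollen markers. Alternatives were other scalings, floors and filters, array weights, other rankings and sizes of the set, arrays left out, averages or blocks of adjacent replicate numbers, and the replicate number as a block.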

Additional observations from a re-analysis of the deposited data

Results flagged for a closer look

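In the groups of 6 arrays of the 82 named features, 4 of 164 groups held 1 array set far apart from the rest, where chance gives about 1 in 20. All values are log2 of normalized intensity. The feature of AT4G24026 and AT4G10810 was at 3.08 on laf6 replicate 6, with the other laf6 arrays between 3.37 and 3.55. The O-fucosyltransferase feature of AT5G63390, AT3G07900 and AT2G44500 was at -1.33 on laf6 replicate 1, with the others between -0.65 and -0.39. For AT1G11360, PHOS32 and PHOS34 the highest WT array was replicate 1 at -0.74, with the others between -1.38 and -1.20. The feature of AT4G03940 and AT4G03830, the dimmer of its pair, was at -1.73 on laf6 replicate 3, with the others between -1.20 and -1.05.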

How the results depend on the processing

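Of the 40 higher and 79 lower features, 27 and 69 kept their call under all 4 other scalings (as deposited, median, 75th percentile and cyclic loess), and 0 were called the opposite way in any alternative fit. As deposited, 122 were lower and the median log2 difference was -0.73. With adjacent replicate numbers averaged, 26 were higher and 40 lower, in a fit with 3 samples per group. Ranking features by WT brightness gave a median of -0.42 and by laf6 brightness -0.13. The top 100 held 21 higher and 52 lower with a median of -0.43, beside 12.4% higher and 13.8% lower of all features. The top 400 had a median of -0.26. The CSLC12 feature turned to 0.043 under median scaling and 0.067 under 75th percentile scaling, and the AT1G35510 feature to -0.13 as deposited, and the cause was not tested. Without any 1 array, 38 to 41 features were higher and 74 to 81 lower, with medians of -0.33 to -0.30. Over 82 named features and 26 alternative fits, 2030 values stayed on their side of the threshold, 83 lost a call and 15 gained one. Another 3 changed sign with a call in either fit. Changes of sign by less than 1 with no call in either fit were counted among the 2030. Leaving out replicates 1 and 2 of both groups ended 11 of the named calls, those of the features led by AT3G07510, AT2G14390, MENG, AT1G35510, AT1G02060, AT5G38290, IAA30, AT1G11360, AT1G63740, AT1G49990 and AT4G03940 (adjusted p 0.0587 to 0.156). Same-numbered laf6 and WT arrays had correlated deviations of 0.0966 to 0.184 over all features. Over the several-gene features chosen here these correlations were higher, from 0.273 to 0.557. In either set all 12 arrays correlated best with their own number, a hint from the data and not from the labels. With the replicate block, 38 were higher and 80 lower, 37 and 75 of them calls of the unblocked fit. The PRA1.B1 feature then passed (adjusted p = 0.0300), and the calls of the MENG (0.0731) and AT1G35510 (0.0765) features were lost. Features near the floor or at the top of the scale have only poorly bounded differences.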
